A study of Mus musculus with 6 samples.

Results

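The 33 genes described here mark the cells of blood vessels in the hippocampus. Of these, 26 are genes of endothelial cells, which line the vessel, and 7 are genes of mural cells, the pericytes and smooth muscle cells that wrap it. They were chosen by name, with earlier results of these data known, as genes of cells in which the recombinase used in the study is not driven. Their counts were compared between mice with and without CBP in forebrain excitatory neurons. The count table held 55471 genes, and after a filter on low counts 17981 genes were tested, 32 of the 33 vascular genes among them. Tagln alone was under the filter.

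Endothelial cells of the brain form the blood-brain barrier. Tight junctions between neighbouring cells close the path between them, so that glucose, thyroid hormone and lipids enter the tissue through transporters and many drugs are pumped back into the blood. Pericytes share a basement membrane with the endothelium and help to maintain the barrier, whereas smooth muscle cells around arterioles contract to set blood flow. VEGF receptors, angiopoietin receptors and Notch receptors on endothelial cells carry the signals under which vessels grow and are kept.

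Hippocampal RNA was sequenced in 6 libraries, 3 named Control and 3 named CBP-ifKO, from C57BL/6 mice of 3 to 6 months. CBP-ifKO mice carried floxed Crebbp, the gene of the histone acetyltransferase CBP, together with creERT2, a recombinase activated by tamoxifen, under the Camk2a promoter of excitatory neurons, so that endothelial and mural cells are not expected to lose the gene. Controls were littermates that the series describes as creERT2-negative, although the description field of the Control samples names Camk2a_creERT2. All mice, Controls included, received 5 tamoxifen administrations at 20 mg/ml, and per the study's sample list each library combined 3 female mice, so the 3 libraries of a group are separate pools. Esr1, part of which is present in the recombinase, had 6.07 ± 0.36 CPM in the Control libraries and 66.7 ± 2.91 CPM in the CBP-ifKO libraries (SD, n = 3, where CPM are counts after TMM scaling to a common library size), and Crebbp fell from 191.2 ± 30.1 to 98.4 ± 10.8 CPM (log2 fold change -0.96, with an SE of 0.10 and an adjusted p of 3.63e-05 by edgeR). Ep300, the gene of the paralogue p300, was not past the threshold (0.18, with an SE of 0.098 and an adjusted p of 0.321 by edgeR). The libraries held between 10199008 (CBP-ifKO replicate 1) and 14950257 counts (CBP-ifKO replicate 2). These totals do not follow the aligned reads in the sample list, where replicate 1 of CBP-ifKO has the most of the 6 libraries and replicate 2 the fewest, and the reason is not known. Summed levels of 7 excitatory neuron markers, led by Camk2a, lay between 2766 and 3201 CPM over the 6 libraries, and the groups overlapped. The sum does not stand for each marker. Of the 7, 5 had negative and 2 positive log2 fold changes, and 1, Nrgn, passed the threshold and was lower in CBP-ifKO (-0.73). P-values measure the spread between these pools.

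Of the 32 vascular genes tested, 2 passed the threshold, an adjusted p under 0.05 over all genes tested, and both were lower in CBP-ifKO. They were Myh11, the myosin heavy chain of smooth muscle, and Vtn, the secreted adhesion protein vitronectin, which pericytes express. These 2 genes were 6.25% of the vascular genes tested, against 6.39% of all genes tested called in either direction and 4.99% called lower. The share over all 32 vascular genes was thus near the background. By part, it was 0 of the 26 endothelial genes and 2 of the 6 mural genes tested (33.3%), a share that rests on few genes. In bulk RNA, fewer vascular cells and less RNA per vascular cell cannot be told apart. The Wald test of DESeq2, which the study used, called the same 2 genes, against 6.17% of the genes for which it gave an adjusted p. At an unadjusted p under 0.05 there were 6 vascular genes (18.8%), namely Cldn5, Kdr, Slco1c1, Vtn, Acta2 and Myh11, against 21.2% of all genes.

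Fold changes of the vascular genes were small and mostly below 0. In 24 of the 32 genes (75%) the log2 fold change was negative, against 50.7% of all genes tested (23 genes with RLE or upper-quartile scaling and 21 with library totals only). The median was -0.13, against -0.003 for all genes. Most lists of markers of other cell types leaned the same way, so a lean below 0 was not particular to vascular genes. Of 10 astrocyte markers 9 were below 0 (median -0.08), and of 10 microglia markers 7 were (median -0.07). Erythrocyte markers went the other way, with all 5 tested above 0. The median was -0.13 for the 26 endothelial genes, with a range from -0.53 to 0.17, and -0.25 for the 6 mural genes tested. In 8 vascular genes (25%) the Control and CBP-ifKO libraries did not overlap, against 25.6% of all genes. All 8 were lower in CBP-ifKO, so 25% of the vascular genes tested were lower without overlap, against 13.9% of all genes tested. These were Cldn5, Cdh5, Tek, Notch4, Slco1c1, Sox18, Vtn and Myh11.

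**Figure D1:**
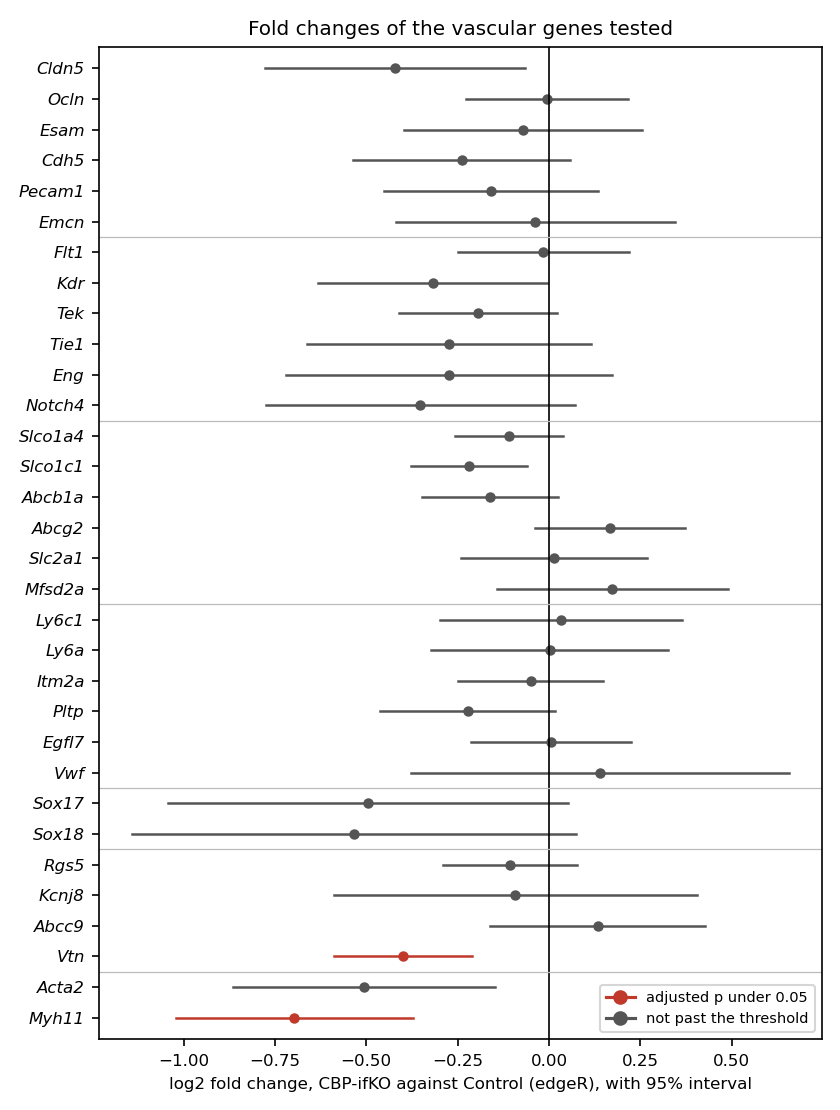
Log2 fold changes of the 32 vascular genes tested, CBP-ifKO against Control, on the horizontal axis, with points for the edgeR estimate and lines for the 95% interval (3 libraries per group). Myh11 and Vtn, drawn in red, passed the adjusted threshold, and the intervals of 26 of the 32 genes span 0.

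The precision of the 6 libraries sets what could be seen. Standard errors ran from 0.070 to 0.29 on the log2 scale, with a median reach of the 95% interval of 0.31 on either side of the estimate. In 19 of the 32 genes the interval lay within 0.5 on either side of 0, and in 29 it lay within 1, so a change of 2-fold was outside the interval of nearly every vascular gene. The median fold change of the list (-0.13) was smaller in size than the reach of the interval of any of its genes. That reach is for single genes and does not measure the spread of a median over the list. The library medians of the vascular genes, described below, had a pooled SD within groups of 0.11 on the log2 scale.

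Of the vascular genes, the smooth muscle gene Myh11 had the largest difference. Myh11 (ENSMUSG00000018830, GRCm38 chromosome 16, 14194535 to 14291372, minus strand) reached 19.0, 13.2 and 13.7 CPM in the Control libraries and 10.5, 8.02 and 10.04 CPM in the CBP-ifKO libraries, each in the order of replicates 1 to 3. Every CBP-ifKO library lay below every Control library, and Control replicate 1 was the highest of the 6. The mean fell from 15.3 ± 3.19 to 9.51 ± 1.31 CPM (SD, n = 3), or 62.2% of the level in Control, with a log2 fold change of -0.70 (SE 0.15, adjusted p 0.0112 by edgeR). None of its exon bases overlap an exon of another annotated gene. Its call rested on single libraries: the adjusted p was 0.0530 without Control replicate 1 (log2 fold change -0.51) and 0.0946 without CBP-ifKO replicate 2 (-0.57).

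Acta2, the smooth muscle actin that works with this myosin, had 13.99, 14.8 and 9.52 CPM in the Control libraries and 8.82, 7.56 and 10.9 CPM in the CBP-ifKO libraries. Control replicate 3 lay below CBP-ifKO replicate 3, so the groups overlapped, and the gene was not past the threshold (log2 fold change -0.51, with an SE of 0.17 and an adjusted p of 0.0884 by edgeR). It was past it without Control replicate 3 (-0.67, adjusted p 0.0329) and with no filter on low counts (adjusted p 0.0154). Tagln, the actin-binding protein transgelin of the same cells, had 4, 10 and 7 counts in Control and 3, 9 and 8 counts in CBP-ifKO. It was under the filter, and with no filter its log2 fold change was -0.28 (adjusted p 0.857 by edgeR). Of its exon bases, 62.4% are shared with Gm48529 on the other strand. Because it is not stated whether counting used the strand, reads of such overlapping genes cannot be told apart.

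Markers of fibroblasts and meninges were lower in the same libraries as the smooth muscle genes. The 12 markers of perivascular fibroblasts and meninges summed to 110.0, 103.2 and 98.7 CPM in Control and 61.6, 71.6 and 72.1 CPM in CBP-ifKO, with no overlap between the groups. Of these, 11 were tested, all 11 had negative log2 fold changes (median -0.55) and none was at 0 counts in all libraries. Of the 11, 3 were called lower (27.3%, against 4.99% of all genes). The 3 were Dcn, a proteoglycan and the most abundant of the list (-0.69, edgeR adjusted p 1.33e-04), the collagen gene Col3a1 (-0.98, adjusted p 0.0291) and Aldh1a2, an enzyme of retinoic acid synthesis (-1.15, adjusted p 0.0178). Dcn stayed past the threshold without any single library, whereas Col3a1 was past it only without CBP-ifKO replicate 1 and Aldh1a2 only without Control replicate 2 or CBP-ifKO replicate 3. The part of these cells in the values of Myh11 and Acta2 was not tested.

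Pericyte genes differed in the sign of their log2 fold changes, and only Vtn was past the threshold. Vtn (ENSMUSG00000017344, GRCm38 chromosome 11, 78499091 to 78502324, plus strand) reached 43.2, 47.8 and 43.9 CPM in Control and 37.8, 30.2 and 34.9 CPM in CBP-ifKO. The groups did not overlap, and the highest CBP-ifKO library was replicate 1. The mean fell from 45.0 ± 2.45 to 34.3 ± 3.85 CPM (SD, n = 3), 76.3% of the Control level, with a log2 fold change of -0.40 (SE 0.089, adjusted p 0.0122 by edgeR). No other annotated exon overlaps the gene. The adjusted p was 0.0879 when CBP-ifKO replicate 2 was left out (-0.30) and 0.0562 without the third (-0.40).

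Rgs5, a regulator of G-protein signalling and the most abundant vascular gene per length, had 129, 107 and 117 CPM in Control and 125, 99.6 and 103 CPM in CBP-ifKO. The groups overlapped, and the log2 fold change was -0.11 (SE 0.087, adjusted p 0.525 by edgeR). Kcnj8 and Abcc9 encode the pore and the regulatory subunit of the ATP-sensitive potassium channel of pericytes, and lie 16.2 kb apart on chromosome 6. Kcnj8 ranged from 2.04 to 2.72 CPM and Abcc9 from 11.6 to 16.96 CPM over the 6 libraries, with log2 fold changes of -0.09 and 0.13 (edgeR adjusted p 0.876 and 0.643). The highest Abcc9 level was in CBP-ifKO replicate 1.

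Vtn is shown by the sequence before its start, because it is one of the genes called. RefSeq promoters of GRCm38.p6 were available for 24 of the 33 vascular genes, with 30 start sites among them, and the 250 bases before each RefSeq start were searched on both strands. The Vtn sequence covers chr11:78498870-78499090 on the plus strand, 221 bases before the annotated gene, and holds no match to the motifs searched, so it carries no capitals.
Vtn: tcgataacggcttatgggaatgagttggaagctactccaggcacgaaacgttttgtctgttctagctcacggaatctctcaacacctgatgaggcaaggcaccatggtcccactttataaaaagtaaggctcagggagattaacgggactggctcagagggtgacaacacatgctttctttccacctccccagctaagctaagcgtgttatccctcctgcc

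**Figure D2:**
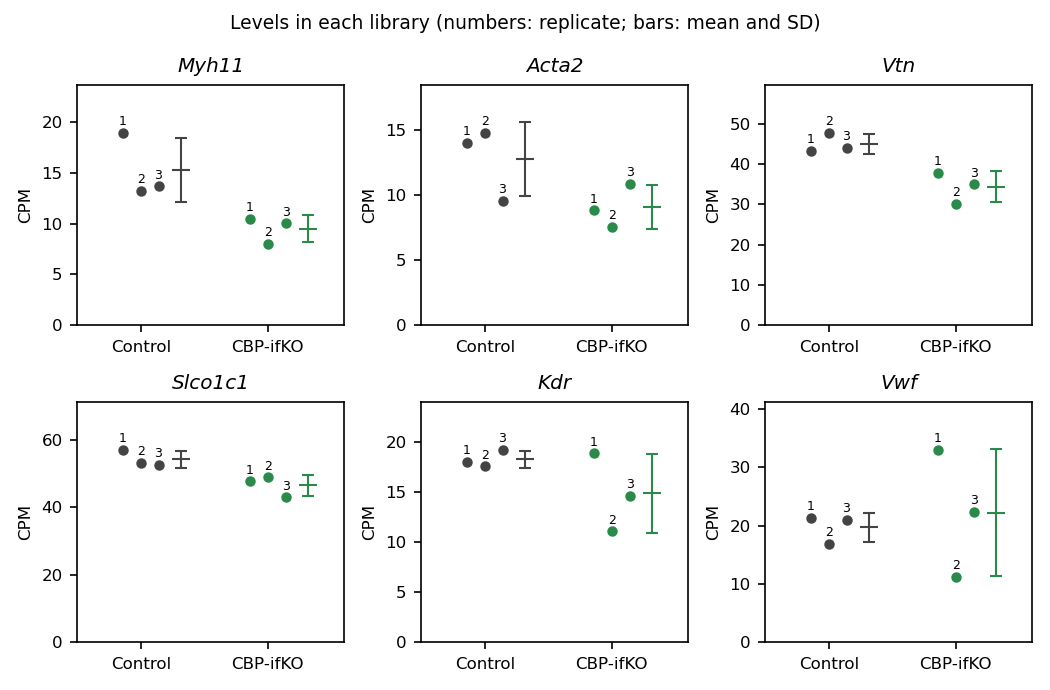
CPM of 6 vascular genes (vertical axes, from 0) in Control and CBP-ifKO libraries; points are single libraries numbered by replicate and bars show the mean and SD (n = 3). The groups separate for Myh11, Vtn and Slco1c1 and overlap for Acta2, Kdr and Vwf. For Kdr and Vwf, CBP-ifKO replicates 1 and 2 lie farthest apart.

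Endothelial genes gave no call. Of the 26 tested, 0 were past the edgeR threshold, against 6.39% of all genes, a share at which 26 genes would hold few calls. DESeq2 and limma-voom also called 0. An unadjusted p under 0.05 was found for 3 of the 26, against 21.2% of all genes. By role, all 6 junction and adhesion genes, all 6 receptor genes and both SOX factors had negative log2 fold changes, except that Ocln turned positive with RLE, upper-quartile or total-count scaling and Emcn and Flt1 did with total counts, while 3 of 6 transporters and 4 of 6 other surface or secreted genes had positive ones. None of these positive or negative values passed the adjusted threshold.

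Among the junction genes, Cldn5, the claudin that seals tight junctions of brain endothelium, had the lowest unadjusted p. Its levels were 10.4, 16.2 and 10.02 CPM in Control and 9.98, 8.94 and 8.72 CPM in CBP-ifKO. Control replicate 2 stood above the other 5 libraries, and the gap between the lowest Control and the highest CBP-ifKO library was only that between 10.02 and 9.98 CPM. The log2 fold change was -0.42 (SE 0.17, adjusted p 0.154 by edgeR), and without Control replicate 2 it was -0.15 (adjusted p 0.602). Cldn5 has a GC content of 60.5%, and once the trends of each library on GC content and length were taken out its log2 fold change was -0.21.

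Cdh5, the cadherin of endothelial adherens junctions, lay at 10.1, 8.42 and 8.73 CPM in Control and 8.24, 7.82 and 7.08 CPM in the CBP-ifKO libraries (log2 fold change -0.24, edgeR adjusted p 0.354). The groups did not overlap, by a gap of less than 1 CPM. Pecam1, the adhesion molecule CD31, had 16.8, 17.7 and 16.4 CPM in Control and 19.3, 14.5 and 12.2 CPM in CBP-ifKO (-0.16, adjusted p 0.569). Here CBP-ifKO replicate 1 was the highest and CBP-ifKO replicate 3 the lowest of all 6 libraries. The tight junction protein occludin (Ocln, -0.01), the adhesion molecule Esam (-0.07) and the sialomucin endomucin (Emcn, -0.04) had 95% intervals from -0.23 to 0.22, from -0.40 to 0.26 and from -0.42 to 0.34.

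Receptor genes were all at or below 0 in log2 fold change, from -0.35 to -0.02. Kdr, the main signalling receptor for VEGF (GRCm38 chromosome 5, 75932827 to 75978458, minus strand), had 18.0, 17.6 and 19.2 CPM in Control and 18.9, 11.1 and 14.6 CPM in CBP-ifKO. Control libraries lay close together, CBP-ifKO replicate 1 lay among them and the other two CBP-ifKO libraries lay below. The log2 fold change was -0.32 (SE 0.15, adjusted p 0.229 by edgeR), and without CBP-ifKO replicate 1 the gene passed the threshold (-0.51, adjusted p 0.0433). Flt1, the VEGF receptor with the weaker kinase, had 65.7, 55.4 and 60.1 CPM in Control and 72.6, 48.5 and 59.3 CPM in CBP-ifKO (-0.02, adjusted p 0.963). Its highest and lowest values were thus both in CBP-ifKO, in replicates 1 and 2.

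The angiopoietin receptor Tek was at 20.7, 19.8 and 19.9 CPM in Control and 19.1, 16.0 and 17.9 CPM in CBP-ifKO. The groups did not overlap, and the log2 fold change of -0.19 (SE 0.10) was not past the threshold (adjusted p 0.292 by edgeR). Tie1, which pairs with Tek, the TGF-beta co-receptor endoglin (Eng) and the endothelial Notch receptor Notch4 had log2 fold changes of -0.27, -0.27 and -0.35, with edgeR adjusted p of 0.432, 0.502 and 0.336. These are low genes, between 3.35 CPM (Notch4) and 8.23 CPM (Eng) over the 6 libraries, and the groups of Notch4 did not overlap only in that its lowest Control and highest CBP-ifKO libraries, both at 3.87 CPM when rounded, were not equal. Each of the 6 receptor genes had its lowest level in CBP-ifKO replicate 2, by a small margin for Tie1 (4.67 CPM, against 4.77 CPM in CBP-ifKO replicate 3).

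Transporters of the barrier had log2 fold changes between -0.22 and 0.17. Slco1c1, which carries thyroid hormone and is also made by astrocytes (GRCm38 chromosome 6, 141524368 to 141570177, plus strand), had 57.0, 53.1 and 52.5 CPM in Control and 47.7, 48.8 and 43.0 CPM in CBP-ifKO. All 3 CBP-ifKO libraries lay below all 3 Control libraries. The log2 fold change was -0.22 (SE 0.075, adjusted p 0.0944 by edgeR), which is 85.8% of the Control level, and with GC and length trends removed the gene passed the threshold (-0.25, adjusted p 0.0351). Slco1a4, an organic anion transporter 235 kb from it, had 68.3, 61.8 and 60.8 CPM in Control and 58.1, 58.2 and 60.8 CPM in CBP-ifKO (-0.11, adjusted p 0.409), with groups that met at 60.8 CPM.

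Log2 fold changes of the efflux pumps differed in sign, and none was past the threshold. Abcb1a, which encodes P-glycoprotein of the barrier, had log2 fold change -0.16 (SE 0.089, adjusted p 0.317 by edgeR), with levels from 30.7 to 36.2 CPM in Control and from 28.4 to 31.5 CPM in CBP-ifKO. Its close paralogue Abcb1b had 7.14, 7.56 and 9.02 CPM in Control and 10.4, 10.6 and 9.79 CPM in CBP-ifKO (0.38, edgeR adjusted p 0.115). The authors removed reads of low mapping quality, and what this did to reads that fit both copies was not tested. In addition 10.1% of the exon bases of Abcb1a are shared with Gm42686 on the other strand. Abcg2, the other main pump, had a log2 fold change of 0.17 (SE 0.097, adjusted p 0.350), with levels from 21.7 to 25.6 CPM in Control and from 24.9 to 27.4 CPM in CBP-ifKO.

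The glucose transporter gene Slc2a1 had 39.3, 35.3 and 36.8 CPM in Control and 46.6, 30.04 and 36.9 CPM in CBP-ifKO, a log2 fold change of 0.01 (SE 0.12, adjusted p 0.969 by edgeR). The means were 37.1 ± 2.04 and 37.8 ± 8.33 CPM (SD, n = 3), so the SD was larger in CBP-ifKO, with replicate 1 highest and replicate 2 lowest. Mfsd2a, which brings the omega-3 lipid DHA into the brain, had the largest positive value of the vascular genes, 0.17 (SE 0.15, adjusted p 0.562), with an interval from -0.14 to 0.49.

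Slco1c1 and Kdr are shown here because each was past the threshold in one of the fits named above, a choice made after their values were seen. Capitals mark a match to the core of ETS factors, which are regulators of endothelial genes (GGAAGT, read on either strand), or to the GC box (GGGCGG). The Slco1c1 sequence, chr6:141524104-141524353 on the plus strand of GRCm38.p6 (250 bases), holds 1 ETS match, and the Kdr sequence, chr5:75978459-75978705 on the minus strand (247 bases), holds 1 ETS match and 2 GC boxes.
Slco1c1: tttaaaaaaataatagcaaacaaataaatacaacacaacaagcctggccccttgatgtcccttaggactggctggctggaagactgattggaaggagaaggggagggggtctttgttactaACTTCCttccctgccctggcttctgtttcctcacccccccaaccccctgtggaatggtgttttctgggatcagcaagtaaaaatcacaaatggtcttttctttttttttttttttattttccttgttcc
Kdr: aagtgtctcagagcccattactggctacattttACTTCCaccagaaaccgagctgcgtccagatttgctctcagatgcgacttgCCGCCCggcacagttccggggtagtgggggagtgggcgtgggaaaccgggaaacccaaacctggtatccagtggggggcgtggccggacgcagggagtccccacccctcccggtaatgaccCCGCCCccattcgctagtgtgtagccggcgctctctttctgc

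Over the 30 promoters of vascular genes, the ETS core was found in 33.3%, against 19.7% of all 32851 RefSeq promoters searched the same way. The GC box was in 40% against 32.7%, the core of the cyclic AMP response element (TGACG), to which CREB binds, in 20% against 17.8%, and the SOX core (ACAAT) in 23.3% against 27.7%. The CArG box, which serum response factor reads in smooth muscle genes, was in 0 of the 30 against 1.47% of all, and neither Myh11 nor Tagln was among the genes searched. No motif of the 5 contains another, and a match is a description of these letters.

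Other endothelial surface and secreted genes had a median log2 fold change of 0.004. Vwf, which encodes von Willebrand factor of larger vessels, had 21.3, 16.8 and 20.9 CPM in Control and 32.9, 11.2 and 22.4 CPM in CBP-ifKO. The CBP-ifKO libraries alone spanned a 2.93-fold range, with the highest and the lowest of all 6 values. The log2 fold change of 0.14 (SE 0.24, adjusted p 0.805 by edgeR) therefore had an interval from -0.38 to 0.66, and without CBP-ifKO replicate 1 it was -0.25. Pltp, the phospholipid transfer protein, had a log2 fold change of -0.22 (adjusted p 0.276), and 19.3% of its exon bases are shared with Ctsa on the other strand.

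The membrane protein Itm2a had 25.9, 26.03 and 26.1 CPM in the 3 CBP-ifKO libraries and 28.2, 28.8 and 23.7 CPM in Control, so that its CBP-ifKO values were the closest of any vascular gene and lay inside the Control range (-0.05, with an SE of 0.094 and an adjusted p of 0.820 by edgeR). Egfl7, a secreted protein of endothelial matrix, had a log2 fold change of 0.01 (SE 0.10), with 7.37% of its exon bases shared with Gm20532 on the same strand. The GPI-anchored proteins Ly6c1 and Ly6a had log2 fold changes of 0.03 and 0.002, with standard errors of 0.16 and 0.15. Ly6c2, the near-identical neighbour of Ly6c1, had 0 counts in all 6 libraries. Whether reads that fit both genes were removed for low mapping quality was not tested.

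The SOX factors Sox17 and Sox18, which act in arterial and lymphatic endothelium, had the largest differences among endothelial genes and the lowest counts. Sox17 had 3.57, 3.18 and 3.67 CPM in Control and 3.59, 1.64 and 2.39 CPM in the CBP-ifKO libraries (log2 fold change -0.50, with an SE of 0.26 and an adjusted p of 0.288 by edgeR). CBP-ifKO replicate 1 again lay among the Control libraries, and 16.9% of the exon bases of Sox17 are shared with Gm37587 on the other strand. Sox18 had between 12 and 21 counts per library, at 1.69, 1.80 and 1.59 CPM in Control and 1.16, 1.05 and 1.32 CPM in CBP-ifKO (-0.53, SE 0.29, adjusted p 0.307). Its groups did not overlap, but its interval ran from -1.14 to 0.08.

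The vascular genes differed in level among the 3 CBP-ifKO libraries. For each library, the median deviation of the 32 genes from their own mean over 6 libraries was taken on the log2(CPM + 0.5) scale. In the order of replicates 1 to 3 it was 0.14, 0.05 and 0.06 for the Control libraries and 0.09, -0.21 and -0.08 for the CBP-ifKO libraries. In CBP-ifKO replicate 1, 20 of the 32 genes were above their own mean, as many as in Control replicate 3 (20) and close to Control replicate 2 (21), whereas 3 were in CBP-ifKO replicate 2 and 7 in CBP-ifKO replicate 3. Among the 3 CBP-ifKO libraries, replicate 1 was the highest for 23 vascular genes (71.9%), against 33.8% of all genes tested, and replicate 2 the lowest for 22 (68.8%), against 36.3% of all genes.

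**Figure D3:**
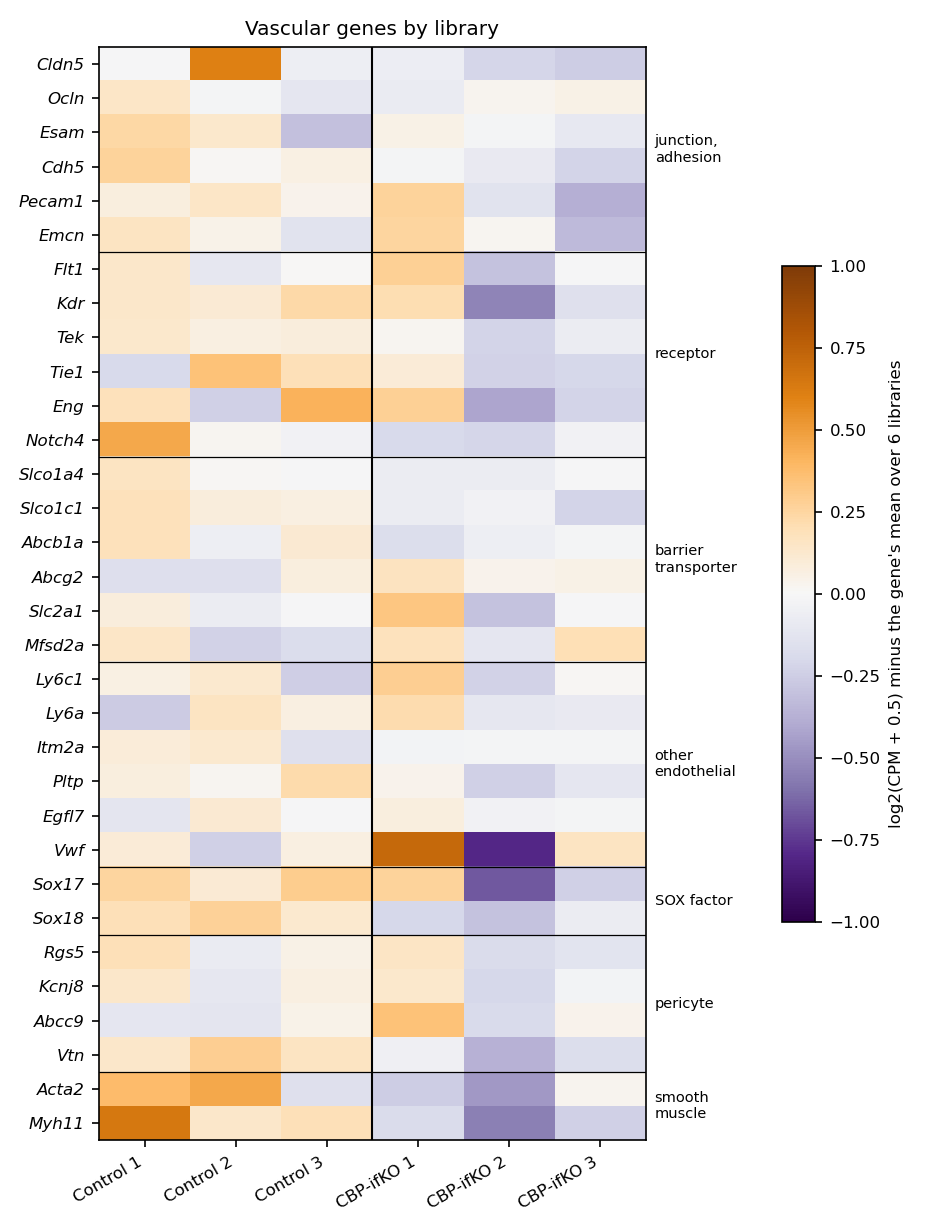
Level of each vascular gene tested (32 genes, grouped by role) in each of the 6 libraries, as log2(CPM + 0.5) minus the gene's mean over the libraries; orange is above and purple below that mean. CBP-ifKO replicate 1 is above the mean in 20 of 32 genes and the highest of the 6 libraries in 9, and CBP-ifKO replicate 2 is below the mean in 29 of 32 genes.

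The median log2 fold change of the vascular genes moved with single CBP-ifKO libraries. With all libraries it was -0.13, and without CBP-ifKO replicate 1 it was -0.22, with 29 of the 32 genes below 0. Without CBP-ifKO replicate 2 it was -0.09, with 22 genes below 0. Sums over the list overlapped between the groups, at 755, 699.9 and 705 CPM in Control and 741, 601 and 652 CPM in CBP-ifKO.

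Erythrocyte markers, which come from blood left in the vessels, stood apart in CBP-ifKO replicate 1. The 6 markers summed to 59.4, 99.4 and 73.1 CPM in Control and to 191.3, 65.5 and 87.3 CPM in CBP-ifKO. CBP-ifKO replicate 1 was thus the highest and CBP-ifKO replicate 2 lower than all but Control replicate 1. Control replicate 1 went the other way: its erythrocyte sum was the lowest, and its median deviation over the vascular genes (0.14) the highest, of the 6 libraries. The most abundant, Hbb-bs, a beta-globin gene, had 119 CPM in CBP-ifKO replicate 1 and between 37.5 and 64.6 CPM in the other libraries. All 5 erythrocyte markers tested had positive log2 fold changes (1 of the 5, Alas2, without CBP-ifKO replicate 1), 0 were called by edgeR, DESeq2 or limma-voom and 1 had an unadjusted p under 0.05. None of the markers was at 0 counts in all libraries. Globin genes have near-identical copies, so their single values are uncertain, and the part of blood in the vascular levels was not tested.

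**Figure D4:**
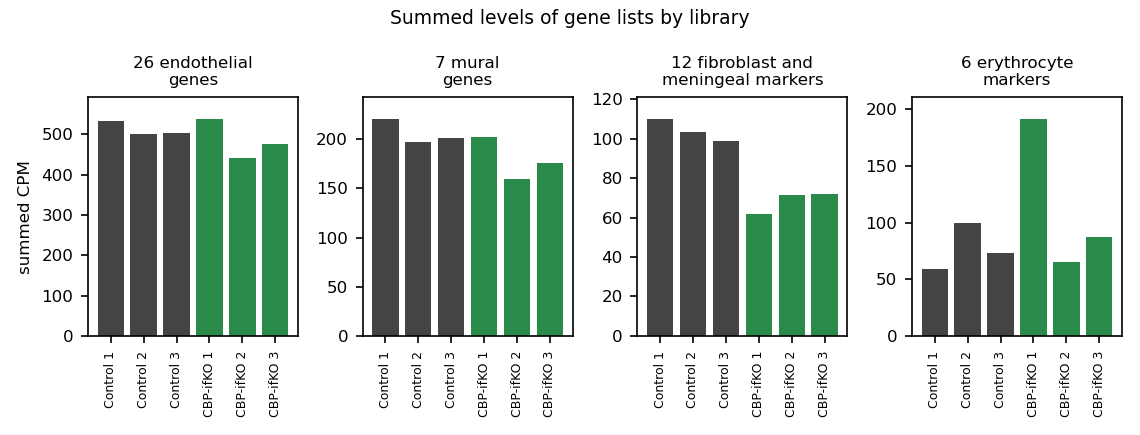
Summed CPM (vertical axes, from 0) of the 26 endothelial genes, the 7 mural genes, 12 perivascular fibroblast and meningeal markers and 6 erythrocyte markers in each library, Control in grey and CBP-ifKO in green. Fibroblast and meningeal markers separate the groups, while erythrocyte markers are highest in CBP-ifKO replicate 1, at 191.3 CPM.

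Libraries also differed in how counts depended on GC content. The slope over all genes was -0.02, 0.13 and 0.04 log2 units per 10 points of GC for Control libraries 1 to 3 and -0.02, -0.11 and -0.02 for CBP-ifKO libraries 1 to 3, so that CBP-ifKO replicate 2 was the most negative. Vascular genes ran from 39.2% GC (Abcg2) to 61.2% (Notch4). Across the 32 genes, which are not independent replicates and come from the same libraries, Spearman's rho between GC content and log2 fold change was -0.35, against -0.29 over all genes. With the GC and length trends of each library removed, the median of the vascular genes was -0.12, Myh11 and Vtn stayed past the threshold (adjusted p 0.0170 and 0.0192), and the library medians were 0.13, 0.07 and 0.04 in Control and 0.13, -0.12 and -0.06 in CBP-ifKO, so the order of the CBP-ifKO libraries was the same.

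The levels of the vascular genes per length, as mean CPM per kilobase of exon, placed mural genes at both ends. In Control, Rgs5 (25.9 ± 2.49) and Vtn (22.1 ± 1.21) came first, followed by Itm2a (15.4 ± 1.59), Slc2a1 (10.6 ± 0.58), Slco1c1 (10.4 ± 0.47) and Slco1a4 (9.92 ± 0.64). Slc2a1 and Slco1c1 differed by less than their SD. At the other end were Sox18 (1.05 ± 0.067), Kcnj8 (0.99 ± 0.099), Sox17 (0.73 ± 0.054), Notch4 (0.56 ± 0.12) and Tagln (0.32 ± 0.12), all SD over 3 libraries. In CBP-ifKO, Rgs5 (24.1 ± 3.06) again led and Vtn stood at 16.9 ± 1.90. The coefficient of variation had a median of 9.68% in Control and 12.4% in CBP-ifKO and was larger in CBP-ifKO for 17 of the 32 genes.

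Partners of these genes in the same pathways were read from the same fit. Of 29 angiogenic ligands and signalling partners tested, 4 were called, all lower, which is 13.8% against 6.39% of all genes, and the median was -0.14. They were Pdgfb, the endothelial ligand that recruits pericytes and is also made by neurons (-0.61, with an SE of 0.14 and an adjusted p of 0.0156 by edgeR), the Notch ligand Jag2 (-0.43, adjusted p 0.0277), the semaphorin and VEGF-C co-receptor Nrp2 (-0.33, adjusted p 0.00917) and the sphingosine phosphate receptor S1pr1 (-0.23, adjusted p 0.0369). Pdgfb had 16.0, 18.0 and 15.5 CPM in Control and 12.6, 8.41 and 11.8 CPM in CBP-ifKO, without overlap. Of 24 junction partners and Wnt genes, 1 was called (4.17%, against 6.39% of all genes). It was Wnt7b, a neuronal and glial Wnt ligand that acts on brain endothelium. Its levels were 24.3, 29.5 and 24.7 CPM in Control and 17.4, 14.3 and 15.5 CPM in CBP-ifKO (-0.75, SE 0.11, edgeR adjusted p 6.85e-04). Wnt7b shares 6.62% of its exon bases with AU022754 on the other strand.

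Of 18 further transporters, 1 was called (5.56%, against 6.39% of all genes), namely Lrp8, a reelin and apolipoprotein E receptor (-0.26, edgeR adjusted p 0.0300). The cells behind the values of Lrp8, Jag2, Nrp2 and S1pr1 cannot be told from bulk RNA. The 20 further endothelial transcription factors and the 16 genes of the vascular basement membrane tested gave 0 calls by edgeR, DESeq2 or limma-voom. By edgeR, 6.39% of all genes were called. In these lists 2 and 3 genes had an unadjusted p under 0.05, against 21.2% of all genes, and the medians were -0.16 and -0.07.

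Among the lists of partner genes, that of further mural genes held the largest share of calls, 7 of 24 tested (29.2%, against 6.39% of all genes). All 7 were lower, and the median of the list was -0.17. The lists were chosen with earlier results of these data known, so their shares of calls are descriptions. DESeq2 called 4 of the further mural genes. The genes called were Myl9, the light chain of smooth muscle myosin (-0.52, edgeR adjusted p 0.0389), Mylk, its kinase (-0.50, adjusted p 0.0200), the tropomyosin Tpm1 (-0.27, adjusted p 0.0114), and the skeletal muscle actin Acta1 (-0.93, adjusted p 0.0190). Acta1 was low, at 3.66, 4.47 and 4.56 CPM in Control and 1.65, 2.30 and 2.63 CPM in CBP-ifKO, and Mylk shares 4.87% of its exon bases with E130310I04Rik on the other strand. Further contractile genes of the list were not past the threshold, namely Smtn (-0.27), Tpm2 (-0.22), Cald1 (-0.06) and Lmod1 (0.24), with edgeR adjusted p from 0.567 to 0.774. Also called were Cspg4, the proteoglycan NG2 (-0.57, adjusted p 0.00251), the integrin Itga7 (-0.37, adjusted p 0.0337) and Rgs4 (-0.50, adjusted p 0.00163), the most abundant of the list per length. Rgs4 and Tpm1 are also expressed by neurons and Cspg4 by oligodendrocyte precursors, so the list is not particular to mural cells.

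Of these 13 called partner genes, Wnt7b, Cspg4 and Rgs4 were past the threshold in every alternative run. The other 10 were not past it without CBP-ifKO replicate 2, the library in which the vascular genes were lowest. Over all genes, the number called fell from 1149 to 498 without that library, and to 526 without CBP-ifKO replicate 3. With GC and length trends removed, 4 of the 13 were not past it, namely Jag2 (-0.17, edgeR adjusted p 0.321), Pdgfb (-0.42, adjusted p 0.0558), Myl9 (-0.41, adjusted p 0.0934) and Itga7 (-0.20, adjusted p 0.209).

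Oligodendrocyte precursor markers were lower beside Cspg4: their sum was 272, 294 and 290.4 CPM in Control and 235, 240.4 and 233 CPM in CBP-ifKO. All 5 genes had negative log2 fold changes, and Pdgfra (-0.38, edgeR adjusted p 0.00263) and Gpr17 (-0.36, adjusted p 0.0433) were called. These 2 were 40% of the list, against 6.39% of all genes. Pdgfra stayed past the threshold in each of the 16 alternatives at this threshold, whereas Gpr17 was not past it in 12 of them, DESeq2 and limma-voom among them. The part of these cells in the value of Cspg4 was not tested. Other lists with calls were excitatory neurons (Nrgn, -0.73) and interneurons (Sst, -0.51, and Slc32a1, -0.38). Slc32a1 was not past the threshold in 10 of the 16 alternatives, and its log2 fold change was -0.15 with GC and length trends removed. The remaining 7 of the 11 marker lists, which included astrocytes, microglia, oligodendrocytes and choroid plexus, gave 0 calls by edgeR, DESeq2 or limma-voom among 48 genes tested. Of these 48, 9 had an unadjusted p under 0.05, against 21.2% of all genes.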

How the data were processed

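Total RNA of the hippocampus was sequenced as single-end reads of 50 bp in 3 Control and 3 CBP-ifKO libraries. The authors trimmed reads with Trim Galore 0.6.4, aligned them with STAR 2.6.1 to mm10 (GRCm38), kept reads of sufficient mapping quality and counted them over Ensembl exons with Rsubread; strand use was not stated. The deposited values are unnormalized whole-read counts of each gene. Each column matched 1 sample title. GENCODE M21 (same build) matched 55230 of 55471 identifiers (99.6%) and gave symbols, coordinates and GC content; gene length was the deposited exon length.

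The vascular genes and gene lists were chosen with earlier results of these data known. Counts were tested with edgeR 4.0.16 in R 4.3.3 by the quasi-likelihood F-test, with TMM scaling, filterByExpr (minimum count 10, minimum total 15), group as the only term and Benjamini-Hochberg adjustment over 17981 genes, at an adjusted p under 0.05. The standard error is the size of the log2 fold change divided by the square root of F, and intervals are at 95%. No p was adjusted over the vascular genes alone. All 33 genes are named, and of the other lists those past the threshold, the most abundant gene of a described list, and Crebbp, Ep300 and Esr1; Abcb1b, Ly6c2, Alas2, Smtn, Tpm2, Cald1, Lmod1 and genes with overlapping exons were added once their values were known. The test was also run on simulated data with known changes.

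Alternatives were DESeq2 1.42.0 (adjusted p of NA left NA), limma-voom (limma 3.58.1), scaling by RLE, upper quartiles or totals, no filter, at least 10 counts in every library, the replicate number as a block, per-library GC and length offsets (natural splines, 5 degrees of freedom), both together, each library left out and an adjusted p under 0.01. Total counts ran from 10199008 to 14950257 and the common dispersion gave a coefficient of variation of 6.81%. Replicates differed by more than sampling noise (chi-square per degree of freedom at least 2.32). Summaries and figures used Python 3.11.15.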

Additional observations from a re-analysis of the deposited data

How the results depend on the processing

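Between 14628 and 35043 genes had an adjusted p in the fits that kept all libraries. The number of genes called was 1855 with the replicate block and the GC and length offsets at once and 476 at an adjusted p under 0.01, and 498 to 1326 without 1 replicate, with 498 without CBP-ifKO replicate 2, 526 without CBP-ifKO replicate 3, 546 without Control replicate 3 and the most without Control replicate 2. For the vascular genes these numbers were 4 (Slco1c1, Vtn, Myh11 and Acta2), 0 and 0 to 3, where 1 was called without Control replicate 1 (Vtn), 0 without CBP-ifKO replicate 2 and 1 without the third CBP-ifKO replicate (Myh11); the stricter threshold lowers the counts by construction, and the cause of the rest was not tested. The median of the vascular genes stayed below 0 throughout, from -0.22 without CBP-ifKO replicate 1 to -0.088 with library totals only, where the median of all genes was 0.043. With GC and length trends left in, same-numbered libraries did not deviate together (correlations of 0.077, 0.037 and 0.0022). With these trends removed, the correlations were not computed, and the block raised the genes called from 1101 to 1855. Whether same-numbered libraries form pairs is thus not settled. The replicate block alone gave 1210 genes and 2 vascular genes called, with a median of -0.13. Log2 fold changes near 0 turned in sign, none past the threshold: Ocln was 0.0034 with DESeq2, 0.00097 with RLE, 0.0074 with upper-quartile scaling, 0.039 with library totals and 0.0030 with no filter; Emcn was 0.0082 with totals; Flt1 was 0.030 with totals, 0.021 with GC and length offsets and 0.017 with the block added; Slc2a1 was -0.018 and Vwf -0.021 with limma-voom; Ly6a was -0.0019 with limma-voom, -0.019 with offsets and -0.020 with the block added. Without 1 replicate the values ran from -0.061 to 0.067 (Ocln), -0.22 to 0.042 (Esam), -0.18 to 0.12 (Emcn), -0.17 to 0.13 (Flt1), -0.16 to 0.17 (Slc2a1), -0.10 to 0.17 (Ly6c1), -0.12 to 0.11 (Ly6a), -0.13 to 0.011 (Itm2a), -0.053 to 0.082 (Egfl7), -0.25 to 0.49 (Vwf), -0.19 to 0.028 (Kcnj8) and -0.014 to 0.27 (Abcc9). The other 20 vascular genes tested kept their direction in each alternative that gave a value. Tagln had an adjusted p only with no filter, and of the genes tested Sox18 and Sox17 had the widest intervals.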
